A study of Mus musculus with 8 samples.

Results

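The 9 genes described here belong to the network that governs exit from the cell cycle: the Cip/Kip inhibitors Cdkn1a (p21), Cdkn1b (p27) and Cdkn1c (p57), the pocket proteins Rb1, Rbl1 (p107) and Rbl2 (p130), the homeobox factor Meis1, and Trp53 (p53) with its ubiquitin ligase Mdm2. They were taken by symbol, and all 9 were found among the 32285 genes counted. Nuclei of adult mouse hearts had been counted in 8 droplet libraries (10x Genomics), labelled by sex and as wild-type non-transgenic (nTg) or as transgenic (Tg) with constitutive expression of CCNA2, cyclin A2. In 5 libraries the matrix fitted its own barcode list, and only these were used, 1 labelled nTg (female 1) and 4 labelled Tg (females 1 and 2, then males 1 and 2). Runs of 5 values follow this order. The promoter that drives the transgene, the strain, the age and any pooling of hearts are not given in the sources used here. Nothing in the labels says that the libraries came from separate animals, so p-values measure only the spread between these libraries.

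Cip/Kip proteins bind and inhibit complexes of CDK2 with cyclin A or cyclin E. Pocket proteins bind E2F transcription factors and keep S-phase genes off until cyclin-dependent kinases phosphorylate them, and in resting cells Rbl2 joins the MuvB core in the DREAM complex. Most rodent cardiomyocytes leave the cell cycle soon after birth, and Meis1 is known as a factor that promotes this exit through Cip/Kip and INK4 inhibitors. After DNA damage p53 raises Cdkn1a and Mdm2, and Mdm2 in turn marks p53 for degradation.

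The Ccna2 transcript went against 2 of the labels. In cardiomyocyte nuclei it stood at 444, 0.524, 814, 233 and 143 CPM (unique molecular identifiers, UMIs, scaled to 1000000 per sum): the library labelled nTg female 1 held the transcript and the library labelled Tg female 1 held almost none. Libraries are therefore named by their labels only, and with 1 library labelled nTg no genotype test was made. Xist and Y-linked genes fitted the sex labels in 5 of 5 libraries. After filtering, the libraries held 5764 to 8820 nuclei (34317 in all) and 25045167 to 38593706 UMIs, and pairs of libraries shared 14 to 28 barcodes. Clusters were named by resemblance to marker lists after the 9 genes and their pathway lists had been left out of the clustering, so "fibroblast" below means fibroblast-like nuclei, and so on. Each of the 8 types used had at least 50 nuclei in every library: cardiomyocytes (6529 nuclei), fibroblasts (12667), endothelial (7116), endocardial (1318), lymphatic endothelial (766), pericytes (2185), smooth muscle (514) and macrophages (2529). Every cluster of these types had 7 or more of its listed markers raised, or 6 of 6 for the endocardial cluster, except a cardiomyocyte cluster of 123 nuclei with 4 of 8. Free RNA was measurable, as Ttn in the other types reached 0.506% to 4.34%, and Myh6 3.35% to 11.0%, of the cardiomyocyte level.

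The promoters of Rbl1 and Rbl2 are shown because these 2 pocket proteins had unlike levels between cell types and in nuclei with mitotic transcripts. Each stretch runs from 250 bases before to 50 bases after the RefSeq start in GRCm38.p6. Capitals mark matches, on either strand, to the E2F cores GCGGGAA and GCGCGAA, the TATA box TATAAA, the CCAAT box CCAAT, the GC box GGGCGG and the CHR element TTTGAA, and the matches shown do not overlap.
Rbl1 (chr2:157204485-157204784, minus strand): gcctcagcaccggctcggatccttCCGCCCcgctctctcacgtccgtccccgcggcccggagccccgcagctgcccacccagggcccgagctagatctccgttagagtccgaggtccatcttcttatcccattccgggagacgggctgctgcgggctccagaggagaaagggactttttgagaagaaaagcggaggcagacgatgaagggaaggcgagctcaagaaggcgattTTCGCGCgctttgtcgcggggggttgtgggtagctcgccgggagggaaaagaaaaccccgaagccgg
Rbl2 (chr8:91069807-91070106, plus strand): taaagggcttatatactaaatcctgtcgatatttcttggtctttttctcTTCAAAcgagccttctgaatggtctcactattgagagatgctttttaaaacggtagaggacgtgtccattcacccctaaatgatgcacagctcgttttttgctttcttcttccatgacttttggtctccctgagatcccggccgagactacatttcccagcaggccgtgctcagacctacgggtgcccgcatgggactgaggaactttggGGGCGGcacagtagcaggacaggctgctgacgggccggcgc
Rbl1 held the E2F core GCGCGAA, printed as TTCGCGC, at offset -17 from the start, and a GC box, printed as CCGCCC, at -226. Of 32851 RefSeq promoter stretches of this length, 1.59% held GCGCGAA and 35.7% the GC box. Rbl2 held the CHR letters, printed as TTCAAA and found in 17.9% of stretches, at -201, and a GC box at 9, with neither E2F core in the window. Promoter entries matched 7 of the 9 genes, with none for Rb1 and Cdkn1c. The stretch of Meis1, which was lower in nuclei with mitotic transcripts, also held GCGCGAA, at -95. Whether any match acts on these levels was not tested.

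The first comparison set each cell type against cardiomyocytes, with UMIs summed per library and type. On the CPM scale, cardiomyocytes had the lowest mean of the 8 types for 7 of the 9 genes, all except Cdkn1a and Meis1. Of 63 pairs of a gene and a type, 45 were called at an adjusted p under 0.05 (edgeR quasi-likelihood test with the library as a block and TMM scaling, Benjamini-Hochberg over all genes), 36 higher and 9 lower than in cardiomyocytes. Cdkn1c and Rbl1, with 21 and 16 UMIs in all cardiomyocyte nuclei, passed the filter on low counts only through the types where they were higher, so their direction was set by the filter and they are described below by their levels. Of the 49 pairs of the other 7 genes, 22 were higher and 9 lower. The count has to be read beside the share of all genes called. Macrophages had 5 of the 7 genes higher and 1 lower, where 37.3% of genes were higher and 39.6% lower. In fibroblasts 4 were higher and 1 lower (all genes 39.5% and 38.4%), and in endothelial nuclei 3 and 2 (39% and 40.7%). Endocardial nuclei had 3 higher and 2 lower (31.5% and 36.4%), lymphatic endothelial nuclei 3 and 2 (27.4% and 36%), pericytes 2 and 0 (33.6% and 37.4%) and smooth muscle 2 and 1 (19.2% and 30.7%). Among the 44 pairs of members with 50 or more UMIs in both sums, a limit set after the data were seen, 20 were higher and 9 lower, beside 36.8% and 35.7% of all genes with that many. The median difference of the 7 genes was 0.66 in macrophages, 0.40 in fibroblasts, 0.30 in endothelial, 0.27 in endocardial and 0.14 in lymphatic endothelial nuclei, 0.03 in smooth muscle and -0.19 in pericytes on the log2 scale. The medians of all genes lay between -0.19 and 0.04, and the last 2 types were within that span. Their own medians of all genes were -0.19 in smooth muscle and -0.04 in pericytes.

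Directions depended on the scaling. Cardiomyocyte nuclei were the deepest, with a median of 5804.5 to 8023 UMIs over the libraries, against 1615.5 to 2207 in endothelial nuclei and 1809 to 2750 in macrophages, and counting per nucleus keeps this difference by construction, while TMM and library totals divide it out. TMM, which scales on the bulk of genes, centred their median near 0, library totals alone moved it to between 0.27 and 0.65, and counting per nucleus moved it to between -1.33 and -0.83. Of the 49 pairs, library totals alone gave 34 higher and 4 lower (all genes 49.7% and 24.5%), and counting per nucleus gave 3 higher and 35 lower (16.3% and 65.6%). Among all genes called, 38.5% to 50.7% were higher with TMM, 59.5% to 71.3% with library totals and 15.99% to 24.6% per nucleus. In 7 of the 49 pairs the call kept its direction under all 3 scalings: 4 of Meis1 (lower), 2 of Cdkn1a and 1 of Rb1. None of the pairs of Cdkn1b, Rbl2, Trp53 and Mdm2 did. The share of all genes that kept a call under all 3 scalings is not given here. Without it these counts do not set the members apart from other genes.

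**Figure D1:**
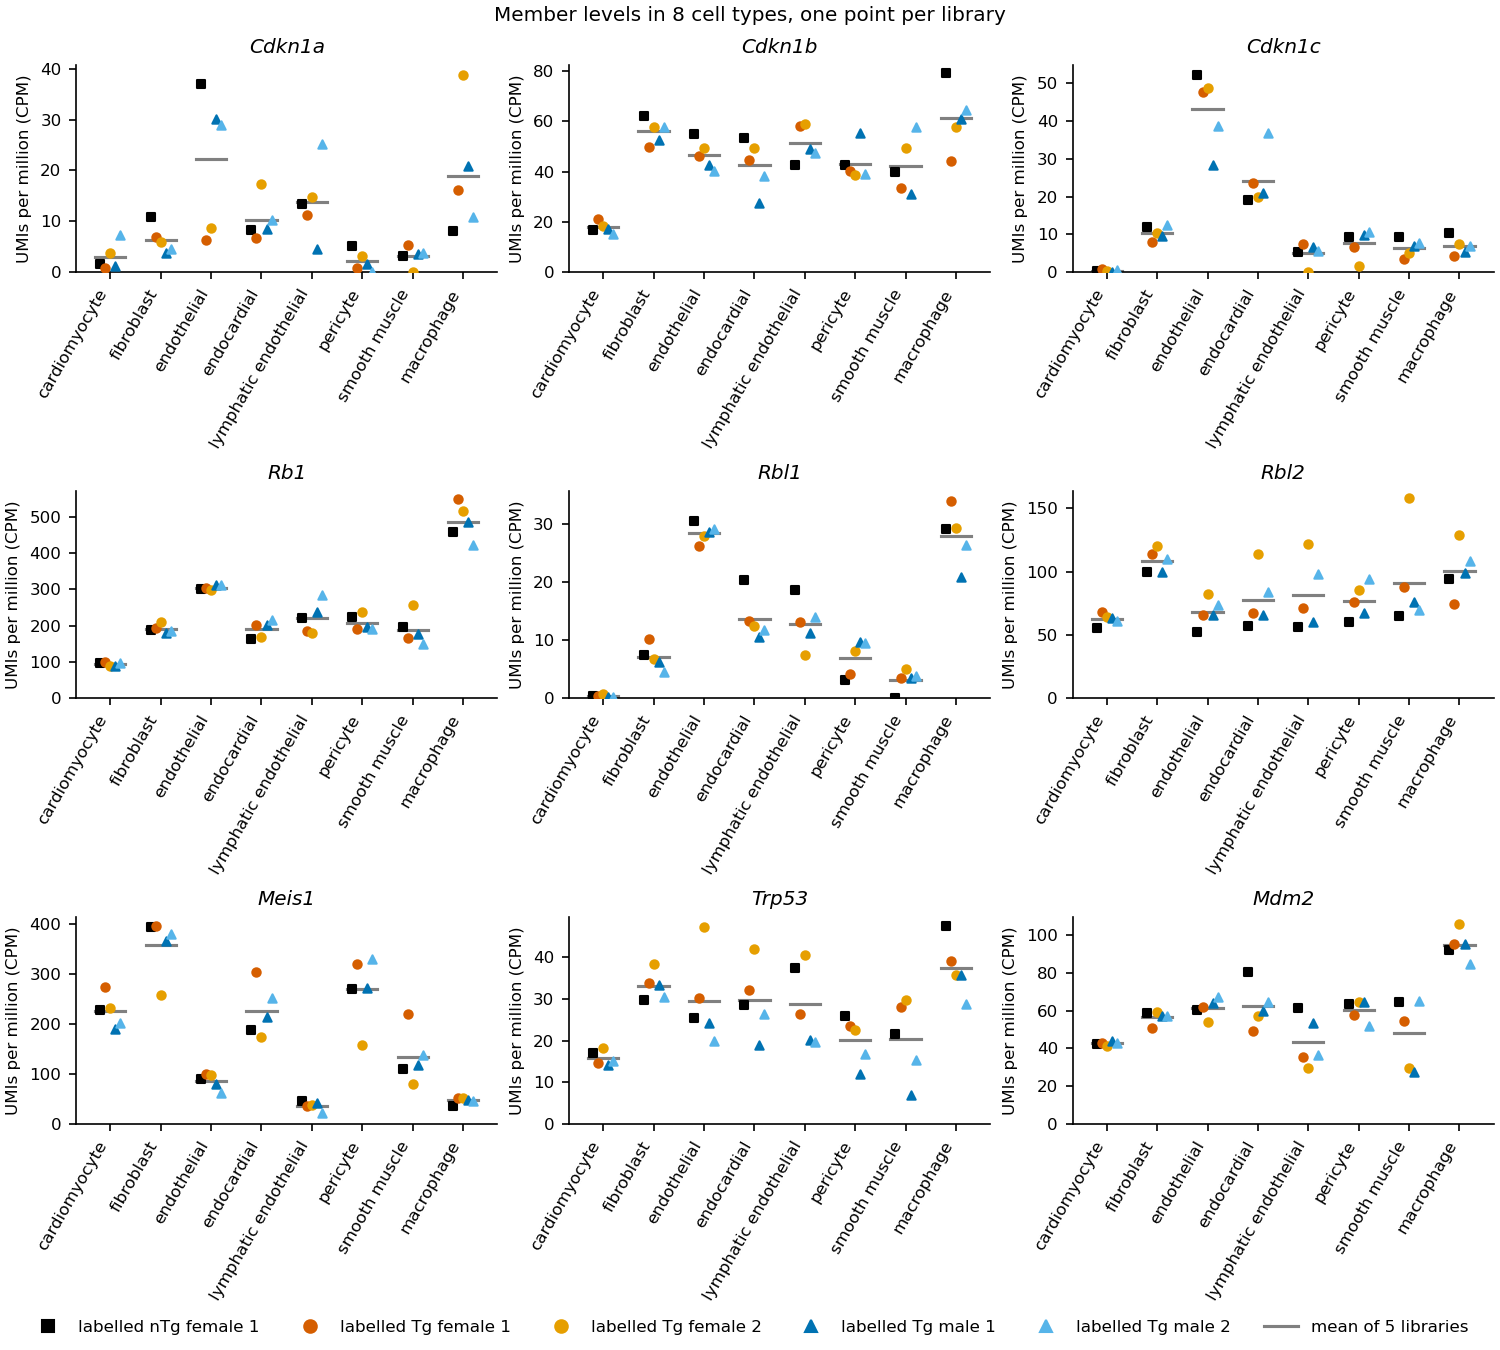
Level of each of the 9 genes (CPM, own scale per panel) in 8 cell types; points are the 5 libraries and bars their means. Cardiomyocytes lie below every other type for Cdkn1b (15.2 to 21.3) and Rb1 (88.5 to 101), while Meis1 is highest in fibroblasts.

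**Figure D2:**
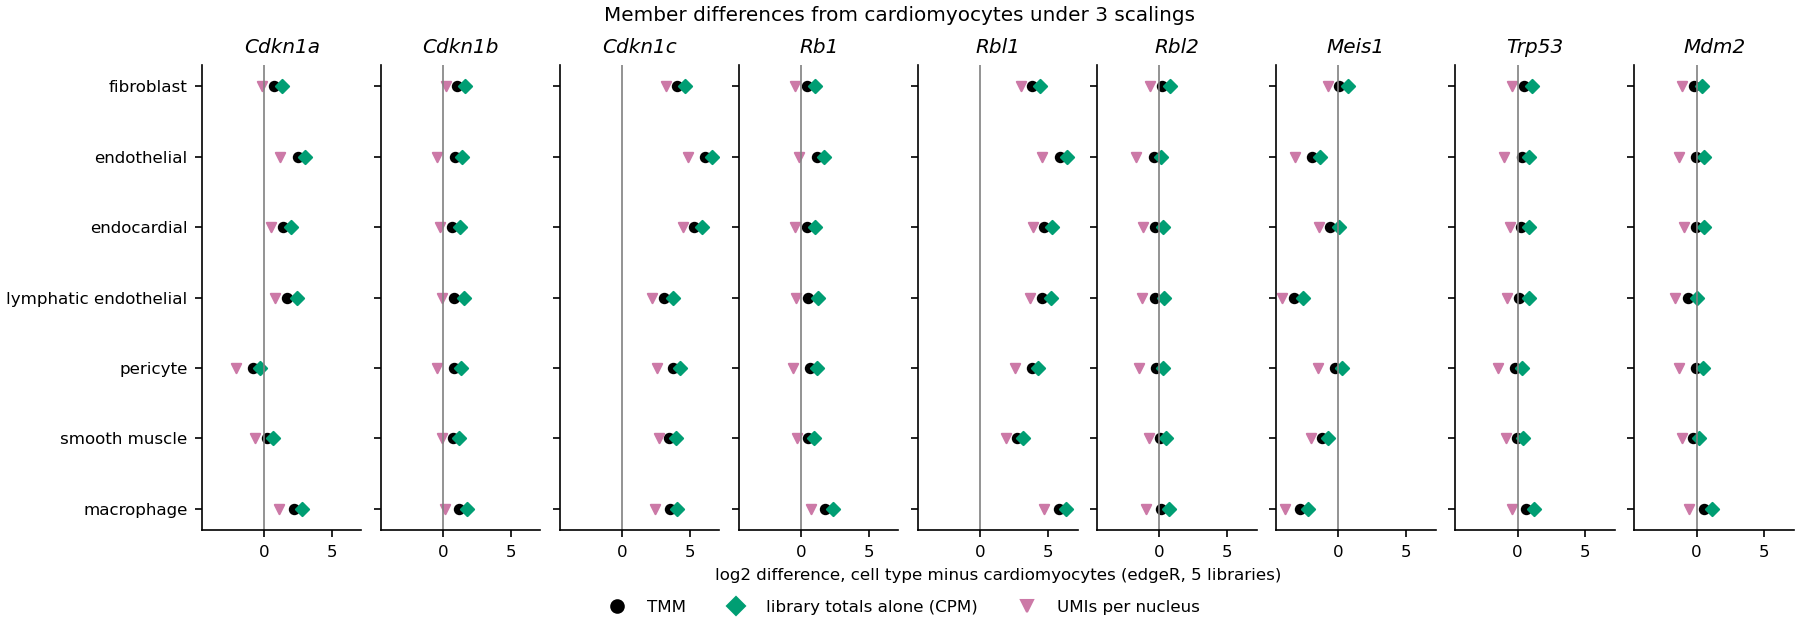
Log2 difference of each gene between 7 cell types and cardiomyocytes (edgeR, 5 libraries) with TMM scaling, library totals alone and UMIs per nucleus. Rbl2, Trp53 and Mdm2 are below 0 in all 7 types per nucleus; the values of Cdkn1c and Rbl1 rest on 21 and 16 cardiomyocyte UMIs.

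Among the pocket proteins, Rb1, which restrains E2F at entry into S phase, measured 97.8, 101, 88.5, 89.1 and 97.4 CPM in cardiomyocytes. Endothelial nuclei held 301, 303, 297, 313 and 311 CPM, and macrophages 459, 548, 516, 487 and 422. The ranges of these 3 types did not overlap, and the other 5 types lay between cardiomyocytes and endothelial nuclei, with means from 189 to 222 CPM and ranges that overlapped. In macrophages Rb1 was higher by 1.77 ± 0.10 (log2 ± SE, n = 5 libraries, edgeR adjusted p = 5.2e-09), and it stayed higher per nucleus (0.68), at 1.20 against 0.749 UMIs per nucleus. In the other 6 types it was higher by 0.40 ± 0.08 (fibroblasts) to 1.15 ± 0.08 (endothelial) with TMM, but the difference per nucleus was negative, from -0.65 to -0.16. The share of nuclei with a Rb1 UMI moved with depth in the same way. It averaged 45.2% in cardiomyocytes and 42.0% in endothelial nuclei, but 9.03% and 25.2% once each nucleus was thinned to 1000 UMIs, which left out 2 to 31 and 15 to 113 shallower nuclei per library. No heart cell type is known to lack Rb1, so no background share can be set beside these values.

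Rb1 (ENSMUSG00000022105, chr14:73183673-73325822 in GRCm38, minus strand) overlaps 2 protein-coding genes of the opposite strand that were also counted. Lpar6, a lysophosphatidic acid receptor gene, measured 8.58 CPM in cardiomyocytes, 72.7 in endothelial nuclei and 98.5 in macrophages. Rcbtb2 measured 30.9, 77.2 and 136 CPM in the same types, the same order as Rb1. The strand setting of the counting is not given in the sources used here, so reads of overlapping genes could be shared.

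Rbl1 (ENSMUSG00000027641, chr2:157145893-157204534, minus strand) encodes p107, the pocket protein that is itself an E2F target in cycling cells. It was near the detection limit in cardiomyocytes, at 0.416, 0.2996, 0.645, 0.179 and 0.187 CPM. Endothelial nuclei held 30.6, 26.3, 27.9, 28.7 and 29.2 CPM and macrophages 29.3, 34.1, 29.3, 20.9 and 26.4. These 2 types overlapped each other and lay above every other type, the next being endocardial nuclei with 13.7 ± 3.92 CPM (SD, n = 5). Per nucleus this was 0.0623 UMIs in endothelial nuclei, 0.0690 in macrophages and 0.00260 in cardiomyocytes. The cardiomyocyte range lay below those of the other types except smooth muscle, where Rbl1 had 5 UMIs in all and none in the library labelled nTg female 1.

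Rbl2 (ENSMUSG00000031666, chr8:91070057-91123844, plus strand) encodes p130, the pocket protein of resting cells, and had the flattest pattern of the 3. Cardiomyocytes held 55.1, 68.4, 64.1, 63.5 and 60.7 CPM, endothelial nuclei 52.2, 66.0, 82.2, 65.8 and 73.7 and fibroblasts 99.4, 114, 120.5, 99.5 and 109.7. Cardiomyocytes and endothelial nuclei overlapped, and fibroblasts lay above both. With TMM Rbl2 was lower in endothelial (-0.43 ± 0.09, edgeR adjusted p = 0.00128) and endocardial nuclei (-0.35 ± 0.14, adjusted p = 0.0350) and higher in fibroblasts (0.19 ± 0.07, adjusted p = 0.0316). The fibroblast call was lost without the library labelled nTg female 1 (edgeR adjusted p = 0.0871), Tg female 2 (0.0753) or Tg male 2 (0.0654), and the endocardial call without nTg female 1 (0.0977), Tg female 1 (0.144) or Tg male 1 (0.0972) and by DESeq2 (0.0940). Conversely, calls of lower Rbl2 appeared in lymphatic endothelial nuclei without Tg female 2 (-0.52, adjusted p = 0.00595) or Tg male 2 (-0.43, 0.0393), and in pericytes without Tg female 2 (-0.28, 0.0460) or Tg male 2 (-0.32, 0.0277). Library totals alone gave positive differences in all 7 types (0.11 to 0.80), and counts per nucleus gave negative ones that were called in all 7 (-1.74 to -0.68), with 0.490 UMIs per cardiomyocyte nucleus against 0.147 per endothelial nucleus. Aktip, which overlaps Rbl2 on the opposite strand, stood at 23.0 CPM in cardiomyocytes and 41.2 in fibroblasts.

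The 3 Cip/Kip inhibitors had separate patterns. Cdkn1b (ENSMUSG00000003031, chr6:134920401-134925513, plus strand), which holds CDK2 in check in resting cells, measured 16.7, 21.3, 18.5, 17.3 and 15.2 CPM in cardiomyocytes. Fibroblasts held 62.2, 49.8, 57.8, 52.5 and 57.7 CPM and macrophages 79.1, 44.3, 57.6, 60.8 and 64.5. The cardiomyocyte range lay below that of every other type, while the other 7 types overlapped their neighbours in the order. Cdkn1b was higher than in cardiomyocytes in 7 of 7 types, from 0.62 ± 0.16 in endocardial nuclei to 1.20 ± 0.16 in macrophages (edgeR adjusted p = 1.7e-05). The smooth muscle call was lost without the library labelled Tg male 2 (0.63, edgeR adjusted p = 0.0566). Per nucleus it held 0.139 UMIs in cardiomyocytes, 0.159 in fibroblasts, 0.155 in macrophages, 0.102 in endothelial nuclei and 0.1005 in pericytes. On that scale Cdkn1b was lower than in cardiomyocytes in endothelial nuclei (-0.46, edgeR adjusted p = 0.00418) and pericytes (-0.48, adjusted p = 0.00705), and the other 5 types were not called.

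Cdkn1c (ENSMUSG00000037664, chr7:143458339-143461050, minus strand) is an imprinted inhibitor expressed from the maternal allele. Endothelial nuclei held 52.2, 47.8, 48.8, 28.5 and 38.8 CPM, endocardial nuclei 19.1, 23.7, 19.8, 21.1 and 36.8 and cardiomyocytes 0.208, 0.824, 0.161, 0.0896 and 0.560. Endothelial exceeded endocardial nuclei in 5 of 5 libraries although the ranges overlapped, and the endocardial range lay above those of the other 6 types, of which fibroblasts came first with 10.5 ± 1.80 CPM. Per nucleus this was 0.0938 UMIs in endothelial nuclei, 0.0694 in endocardial nuclei and 0.00285 in cardiomyocytes. The cardiomyocyte range lay below those of the other types except lymphatic endothelial nuclei, where 1 library had no Cdkn1c UMI. Lymphatic endothelial nuclei held only 5.03 ± 2.94 CPM, so the 3 endothelial-lineage types did not share one level.

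Cdkn1a (ENSMUSG00000023067, chr17:29090976-29100727, plus strand), the p53 target that stops the cycle after damage, varied widely between libraries. Endothelial nuclei held 36.9, 6.36, 8.76, 30.1 and 28.9 CPM, macrophages 8.06, 16.2, 38.8, 20.9 and 10.9 and cardiomyocytes 1.56, 0.899, 3.71, 1.25 and 7.37. The libraries labelled Tg female 1 and Tg female 2 were low in endothelial nuclei, Tg female 2 was high in macrophages, and Tg male 2 was high in cardiomyocytes. Cdkn1a was higher than in cardiomyocytes in endothelial (2.48 ± 0.44, edgeR adjusted p = 4.4e-04), macrophage (2.22 ± 0.45), lymphatic endothelial (1.71 ± 0.43) and endocardial nuclei (1.39 ± 0.40), the last 2 on 26 and 35 UMIs, and the first 2 were also called per nucleus. Without the library block the last 2 were not called (adjusted p = 0.0563 and 0.115 by edgeR). In fibroblasts the difference was 0.72 ± 0.49 (edgeR adjusted p = 0.203) and was called without the library labelled Tg male 2 (1.39, adjusted p = 0.00888). Pericytes and smooth muscle held 10 and 6 Cdkn1a UMIs in all.

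Single nuclei carried part of the Cdkn1a signal in cardiomyocytes. The 143 UMIs fell as 15, 12, 23, 14 and 79 per library, in 15, 12, 16, 14 and 65 nuclei. In 3 libraries no cardiomyocyte nucleus held more than 1, whereas in the library labelled Tg female 2 a single nucleus of 1879 UMIs held 7 Cdkn1a and 10 Mdm2 UMIs. It belonged to a cardiomyocyte cluster of 287 nuclei, in which the 31 nuclei of that library held 8 Cdkn1a and 12 Mdm2 UMIs in all. Over all 34317 nuclei, 11 held 5 or more Mdm2 UMIs, of which 8 held no Cdkn1a, 18 held 3 or more Cdkn1a UMIs, and 1 met both limits.

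Meis1 (ENSMUSG00000020160, chr11:18879817-19018985, minus strand), the homeobox factor tied to postnatal cycle exit, was the one of the 9 genes with no higher call with TMM. Cardiomyocytes held 229, 275, 232, 189.9 and 202 CPM, fibroblasts 394, 396, 259, 367 and 381 and macrophages 36.6, 51.9, 52.4, 48.6 and 45.1. Fibroblasts and cardiomyocytes overlapped through the library labelled Tg female 2, while macrophages, lymphatic endothelial (36.5 ± 8.85) and endothelial nuclei (85.9 ± 16.4) lay below cardiomyocytes in every library. Meis1 was lower than in cardiomyocytes, with differences of -3.31 ± 0.16 in lymphatic endothelial nuclei (edgeR adjusted p = 3.2e-16), -2.85 ± 0.12 in macrophages, -1.94 ± 0.09 in endothelial nuclei and -1.22 ± 0.16 in smooth muscle, and these 4 held under all scalings. The endocardial difference (-0.59 ± 0.12) went to 0.01 with library totals alone. In pericytes (-0.26 ± 0.13, edgeR adjusted p = 0.0917) a call appeared without the library labelled Tg male 2 (-0.36, adjusted p = 0.0339). Per nucleus cardiomyocytes held 1.76 Meis1 UMIs, fibroblasts 1.03 and macrophages 0.115. Gm16141, an antisense gene within Meis1, reached 17.0 CPM in fibroblasts.

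Trp53 (ENSMUSG00000059552, chr11:69580359-69591873, plus strand) measured 16.9, 14.7, 18.2, 14.2 and 15.2 CPM in cardiomyocytes and 47.6, 39.2, 35.6, 35.8 and 28.8 in macrophages, without overlap. It was higher in macrophages (0.66 ± 0.14, edgeR adjusted p = 7.1e-04) and fibroblasts (0.46 ± 0.09), and 5 types were not called. The endothelial difference (0.30 ± 0.14, edgeR adjusted p = 0.0688) was called without the library labelled Tg male 2 (0.41, adjusted p = 0.0257). Mdm2 (ENSMUSG00000020184, chr10:117688875-117710758, minus strand) was the most even of the 9 genes in cardiomyocytes, at 42.2, 42.8, 41.3, 44.2 and 42.7 CPM. Macrophages held 92.3, 95.4, 106, 95.2 and 84.7 CPM, above the range of every other type. It was higher in macrophages (0.56 ± 0.10, edgeR adjusted p = 2.1e-04) and lower in lymphatic endothelial nuclei (-0.66 ± 0.18) and fibroblasts (-0.20 ± 0.07, adjusted p = 0.0306), and with library totals alone both lower values turned positive (0.03 and 0.41). The fibroblast call was lost without the library labelled Tg female 1 (edgeR adjusted p = 0.156), Tg male 1 (0.0697) or Tg male 2 (0.0790), and by DESeq2 (0.0829). Per nucleus Trp53 and Mdm2 were lower than in cardiomyocytes in 7 of 7 types.

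The rest of the pathway was taken from 8 lists of 69 genes, and 420 pairs of a gene and a type were tested, 181 higher and 118 lower than in cardiomyocytes with TMM (all genes 32.7% and 37.1%). Since a gene near 0 in 1 of the sums passes the filter only through the other, the lists are counted over the 302 pairs with 50 or more UMIs in both sums, of which 131 were higher and 98 lower. All genes with that many UMIs were higher in 36.8% and lower in 35.7% with TMM, 14.1% and 71.8% per nucleus, and 60% and 19.7% with library totals alone. G1 cyclins and their kinases were higher in 32 and lower in 1 of 41 pairs with TMM, and 17 and 15 per nucleus, with a median difference of 1.39. Ccnd3, cyclin D3, measured 1373 CPM in macrophages, 464 in endothelial nuclei and 399 in fibroblasts against 47.3 in cardiomyocytes. Other cyclins D were higher elsewhere, Ccnd2 in smooth muscle (2.60 ± 0.18) and pericytes (2.25 ± 0.13), and Ccnd1 in endocardial nuclei (2.87 ± 0.21). Differences given with an error here and for the lists that follow held their direction and call under the 3 scalings. INK4 inhibitors, which block CDK4 and CDK6, had only 4 pairs with 50 or more UMIs in both sums. Of these, 3 were higher with TMM, while per nucleus 0 were higher and 1 lower. Cdkn2b, the inhibitor p15, measured 18.7 CPM in macrophages and 0.151 in cardiomyocytes, the latter on 7 UMIs.

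E2F and DP factors were higher in 11 and lower in 16 of 33 pairs. The repressor E2f7 measured 25.9 CPM in endothelial nuclei and 0.0801 in cardiomyocytes, and the activator E2f1 19.6 CPM in macrophages and 0.134 in cardiomyocytes, where they had 4 and 7 UMIs in all. Tfdp2, an E2F dimer partner, was instead a cardiomyocyte transcript at 556 CPM and was lower in the 6 types where it was named, between -3.76 ± 0.12 in macrophages and -2.47 ± 0.10 in fibroblasts. MuvB genes of the DREAM complex were higher in 7 and lower in 14 of 26 pairs. The p53 regulators were higher in 19 and lower in 14 of 54 pairs, led by the checkpoint kinase Chek2 in endothelial nuclei (41.9 against 1.47 CPM, 4.24 ± 0.20). The p53 targets were higher in 26 and lower in 18 of 55 pairs. Ccng1 and Sesn1 had their highest mean of the 8 types in cardiomyocytes, at 71.6 and 460 CPM. Perp was lower than in cardiomyocytes in fibroblasts (2.95 against 18.0 CPM, -3.23 ± 0.17) but stood at 64.4 CPM in endocardial nuclei.

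MEIS and PBX partners were higher in 20 and lower in 14 of 38 pairs. Meis2, a paralog of Meis1, measured 535 CPM in cardiomyocytes and 12.2 in macrophages (-6.19 ± 0.36). Genes of Cip/Kip turnover and transcription were higher in 13 and lower in 21 of 51 pairs, and Foxo3, a transcription factor that raises Cdkn1b, stood at 290 CPM in cardiomyocytes and was lower in pericytes (-2.31 ± 0.11). The split of these 6 lists moved with the scaling, as that of all genes did. Per nucleus their higher and lower counts were 2 and 27 (E2F and DP), 1 and 21 (MuvB), 5 and 45 (p53 regulators), 10 and 29 (p53 targets), 5 and 20 (MEIS and PBX) and 1 and 42 (Cip/Kip turnover). With library totals alone they were 16 and 11, 12 and 8, 40 and 2, 34 and 15, 23 and 11, and 28 and 11.

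The second comparison set the 2 female against the 2 male libraries labelled Tg, within each cell type. The 2 arms were not alike in the Ccna2 transcript. In cardiomyocytes Tg female 1 held 0.524 CPM, against 814 in Tg female 2 and 233 and 143 in the males. A sex difference cannot be told apart from this imbalance. Of 60 pairs that could be tested, none was called by edgeR, 4 had an unadjusted p under 0.05, and DESeq2 called 1. Shares of all genes at that unadjusted limit, or by DESeq2, are not given in this report. Counts of those kinds, here and below, therefore do not set the members or the lists apart from other genes. By edgeR, the shares of all genes called were 0.0266% in cardiomyocytes, 0.342% in fibroblasts, 0.0537% in endothelial, 0.236% in endocardial and 0.141% in lymphatic endothelial nuclei, 0.156% in pericytes, 0.122% in smooth muscle and 0.197% in macrophages. The lowest adjusted p belonged to Cdkn1a in endothelial nuclei. Its 4 values were 6.36 and 8.76 CPM in the female and 30.1 and 28.9 in the male libraries, a difference of -2.06 ± 0.27 (female minus male, edgeR adjusted p = 0.102, DESeq2 adjusted p = 0.00274). The remaining female library, labelled nTg female 1, held 36.9 CPM, above both males. With it in the fit and no genotype term the difference was -0.78 (edgeR adjusted p = 0.890). Leaving out Tg female 1 or Tg female 2 gave -1.87 (adjusted p = 0.00253) and -2.26 (0.00614), where the lone female library is assumed to vary like the others. All 3 endothelial clusters showed the pattern, though they split the nuclei of the same libraries and add no replicate. In the largest, led by Car4, the 2 Tg female libraries held 8.13 and 10.5 CPM and the other 3 held 30.7 to 37.1. In the cluster led by Sema3g and Gja5 the same libraries held 2.17 and 5.22 CPM, against 23.8 to 44.9. The sexes overlapped in the related types, on few UMIs. Endocardial nuclei held 0.0188 and 0.0402 Cdkn1a UMIs per nucleus in the Tg females, and 0.0247 and 0.0299 in the males. Lymphatic endothelial nuclei held 0.0284 and 0.0323, and 0.0122 and 0.0647.

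**Figure D3:**
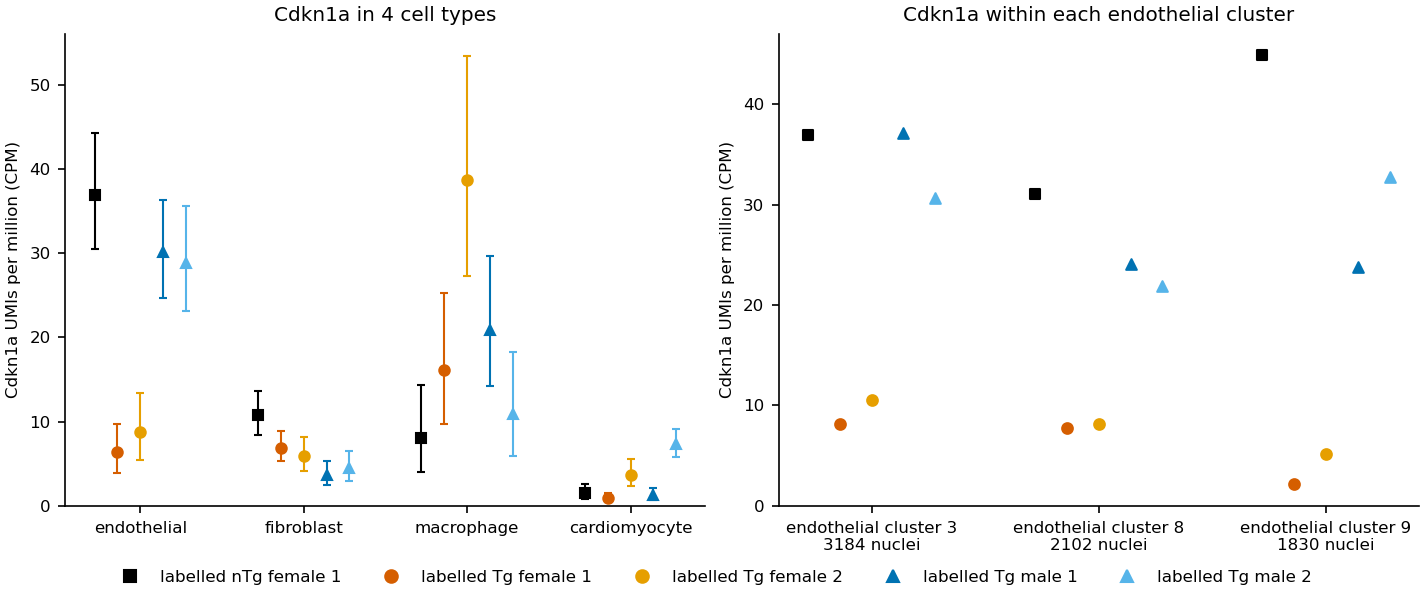
Cdkn1a (CPM) per library in the sums of 4 cell types, with exact Poisson 95% intervals for counting error (left), and in each of the 3 endothelial clusters (right). The libraries labelled Tg female 1 and Tg female 2 lie at 6.36 and 8.76 in the endothelial sums, and the other 3 between 28.9 and 36.9.

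The other 3 unadjusted results were smaller. Trp53 in endothelial nuclei was 30.3 and 47.1 CPM in females and 24.3 and 19.9 in males (0.71 ± 0.25, edgeR adjusted p = 0.453), and it was called without the library labelled Tg female 1 (0.96, adjusted p = 0.0209). Meis1 in endothelial nuclei was 101 and 98.9 CPM in females and 79.1 and 61.1 in males (0.43 ± 0.18, adjusted p = 0.531 by edgeR). Rb1 in lymphatic endothelial nuclei was 184 and 181 CPM in females and 239 and 285 in males (-0.54 ± 0.23, adjusted p = 0.771 by edgeR). Trp53 had a positive difference in all 7 types tested, from 0.09 to 0.71, and none of them was called. The types share the same libraries, so these signs are not separate observations. Without the library labelled Tg female 1, Meis1 was also called in fibroblasts (-0.66, edgeR adjusted p = 0.0232) and pericytes (-0.93, adjusted p = 7.2e-04), where the remaining library labelled Tg female 2 held 259 and 158 CPM. The sexes did not overlap in 37 of the 72 pairs, 25 with females above and 12 with males above. Among pairs with 20 or more UMIs the count was 35 of 64, beside 37.5% for all genes at that depth. Of 378 tests on the pathway lists edgeR called 2, both lower in females, with 36 unadjusted and 5 by DESeq2. They were Perp, a p53 target in cell adhesion, in endocardial nuclei (21.0 against 94.3 CPM, -2.14 ± 0.30, adjusted p = 0.0147) and Ccnd3 in pericytes (146 against 334 CPM, -1.18 ± 0.21, adjusted p = 0.0443).

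The library labelled nTg female 1 was set beside the 4 labelled Tg without a test. It lay outside their range in 33 of 72 pairs, 18 above and 15 below. Among the 66 pairs with 20 or more UMIs over the 5 libraries the count was 30, beside 35.2% for all genes at that depth. The library labelled Tg female 2 lay outside the other 4 in 35 of these 66 pairs, beside 55.4% for all genes, and the other 3 libraries in 19 to 24, beside 32.8% to 39%. Rbl2 was lowest in the nTg-labelled library in 7 of 8 types, for example 52.2 CPM against 71.9 ± 7.76 (SD, n = 4) in endothelial nuclei and 55.1 against 64.2 ± 3.16 in cardiomyocytes. The highest Rbl2 was in the library labelled Tg female 2 in 6 types, as was the highest Trp53 in 6 types. Cdkn1b was highest in the nTg-labelled library in fibroblasts, endothelial nuclei, endocardial nuclei and macrophages, at 62.2, 55.1, 53.2 and 79.1 CPM. Since Ccna2 goes against 2 of the labels, no direction for the transgene follows from these values.

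The third comparison used the Ccna2 transcript itself. Within 4 libraries, cardiomyocyte nuclei with 10 or more Ccna2 UMIs (109, 113, 70 and 35 nuclei) were set against those with 0 (993, 800, 1206 and 1123), and the library labelled Tg female 1 had no nucleus in the first class. Of the 7 genes that could be tested none was called by edgeR or DESeq2 and 1 had an unadjusted p under 0.05, while edgeR called 0.312% of all genes. Rb1, the substrate of cyclin-dependent kinases, measured 91.3 ± 13.8 CPM in nuclei with Ccna2 and 93.2 ± 4.13 in nuclei without (SD, n = 4), a difference of -0.01 ± 0.11 with an approximate 95% interval of -0.23 to 0.20. Cdkn1b, a direct inhibitor of cyclin A complexes, differed by -0.02 ± 0.24 (-0.49 to 0.45), and Rbl2, which cyclin A also binds, by -0.09 ± 0.13 (-0.35 to 0.17). Trp53 differed by 0.08 ± 0.24 (-0.39 to 0.55). Meis1 (199 against 215 CPM, -0.12 ± 0.08) and Mdm2 (37.6 against 43.0 CPM, -0.23 ± 0.16) were lower in 4 of 4 libraries, and neither was called.

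Cdkn1a was the gene with the unadjusted result in that comparison. It had 0, 0, 0 and 2 UMIs in the nuclei with Ccna2 and 14, 23, 14 and 73 in those without. Pooled and scaled to depth this is a ratio of 0.189 with an exact 95% interval of 0.0227 to 0.698, which covers counting error only. The 73 UMIs came from the library labelled Tg male 2, which had the fewest nuclei with Ccna2. The edgeR adjusted p was 0.699 (unadjusted p = 0.0221, lower in 4 of 4 libraries). Among 50 tests on the pathway lists edgeR and DESeq2 called 0, and 6 had an unadjusted p under 0.05. No share of all genes at that unadjusted limit is given here, so the 6 do not set the lists apart.

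**Figure D4:**
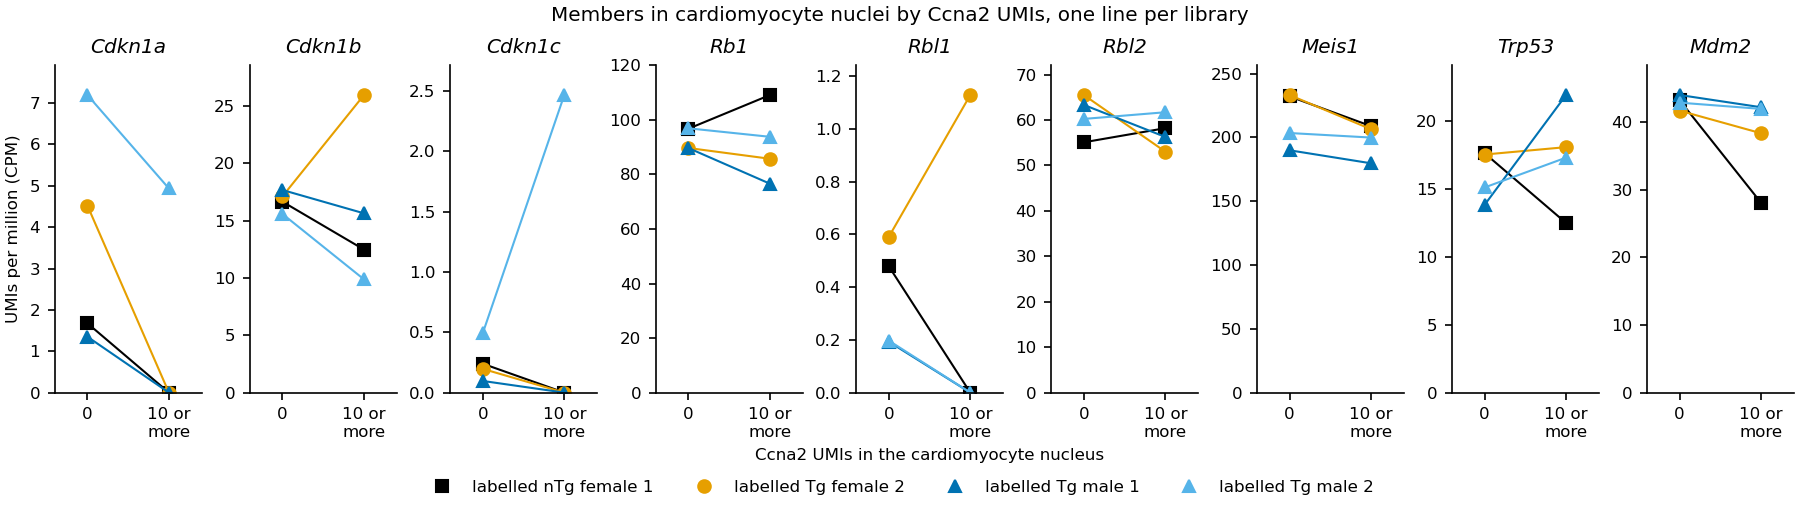
Levels of the 9 genes (CPM, 2 of them too low to test) in cardiomyocyte nuclei with 0 and with 10 or more Ccna2 UMIs, joined within each of 4 libraries. Rb1 averages 93.2 and 91.3, and Meis1 and Mdm2 are lower with Ccna2 in 4 of 4 libraries.

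The last comparison took the 233 nuclei with mitotic transcripts, defined by at least 3 UMIs over at least 2 of 15 genes such as Mki67 and Top2a, against all others. These nuclei were deeper (median 4063 against 2641 UMIs) and were not spread as the whole: 117 lay in an unnamed cluster of 278 nuclei led by cell-cycle genes, in which 7 of 7 B cell markers were raised, 28 were cardiomyocytes, 28 macrophages, 24 fibroblasts and 19 endothelial. All 9 genes were tested and 4 called, 3 higher and 1 lower, where 7.02% of all genes were higher and 7.79% lower. Among the 6 genes with 50 or more UMIs in both sums 2 were higher and 1 lower (all genes with that many 13.2% and 14.4%), which leaves out Cdkn1a, Cdkn1c and Trp53. Rbl1 held 149.5, 52.1, 80.3, 78.2 and 116 CPM in mitotic nuclei, against 8.54 ± 0.890 in the others, and was higher by 3.23 ± 0.26 (edgeR adjusted p = 8.6e-18, higher in 5 of 5 libraries). Other nuclei weighted to the same mix of cell types held 24.5 ± 11.7 CPM. The unnamed cluster counted as 1 type in this mix, so the 117 mitotic nuclei in it were not matched for cell type. Rb1 held 333, 225, 382, 349 and 271 CPM against 184 ± 9.55 (0.57 ± 0.15, adjusted p = 0.0026 by edgeR), and 278 ± 43.8 at the same mix. Its call was lost without the library labelled Tg male 1 (0.46, adjusted p = 0.0765).

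Meis1 was lower in mitotic nuclei, at 109, 229, 132, 106 and 189 CPM against 234 ± 30.4 (-0.81 ± 0.16, edgeR adjusted p = 7.6e-05), and stood at 141 ± 55.98 in other nuclei of the same mix. Cdkn1a was higher, at 34.0, 20.05, 22.5, 14.0 and 19.4 CPM against 7.73 ± 2.24 (1.31 ± 0.41, edgeR adjusted p = 0.0194), on 26 UMIs. Its call was lost without the library labelled nTg female 1 (1.27, adjusted p = 0.0630), Tg female 1 (1.11, 0.0866) or Tg female 2 (1.27, 0.0914). With a limit of 2 UMIs in place of 3, neither Cdkn1a (adjusted p = 0.116) nor Rb1 (0.0644) was called by edgeR. The other 5 genes were not called: Cdkn1b 0.09 ± 0.24, Cdkn1c -0.61 ± 0.50, Rbl2 0.07 ± 0.18, Trp53 0.34 ± 0.28 and Mdm2 0.17 ± 0.21. With the unnamed cluster and the small types left out, a subset chosen after the calls were seen, edgeR called none of the 9 genes, with 2 at an unadjusted p under 0.05, where 3.98% of all genes were called, and DESeq2 was not run on that subset. Rbl1 was then 1.45 ± 0.56 (adjusted p = 0.149, 19 UMIs), Meis1 -0.61 (adjusted p = 0.0664), Cdkn1a 0.69 (adjusted p = 0.708) and Rb1 -0.09. The mitotic list was kept in the clustering, and Top2a, Hmmr and Mki67 were among the genes that led the unnamed cluster. Leaving it out thus removes nuclei through the genes that define the class, and took Rbl1 from 112 to 19 UMIs. The subset cannot separate cell type mix from cycling or from lost counts, and the part of mix in the 4 calls was not tested.

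**Figure D5:**
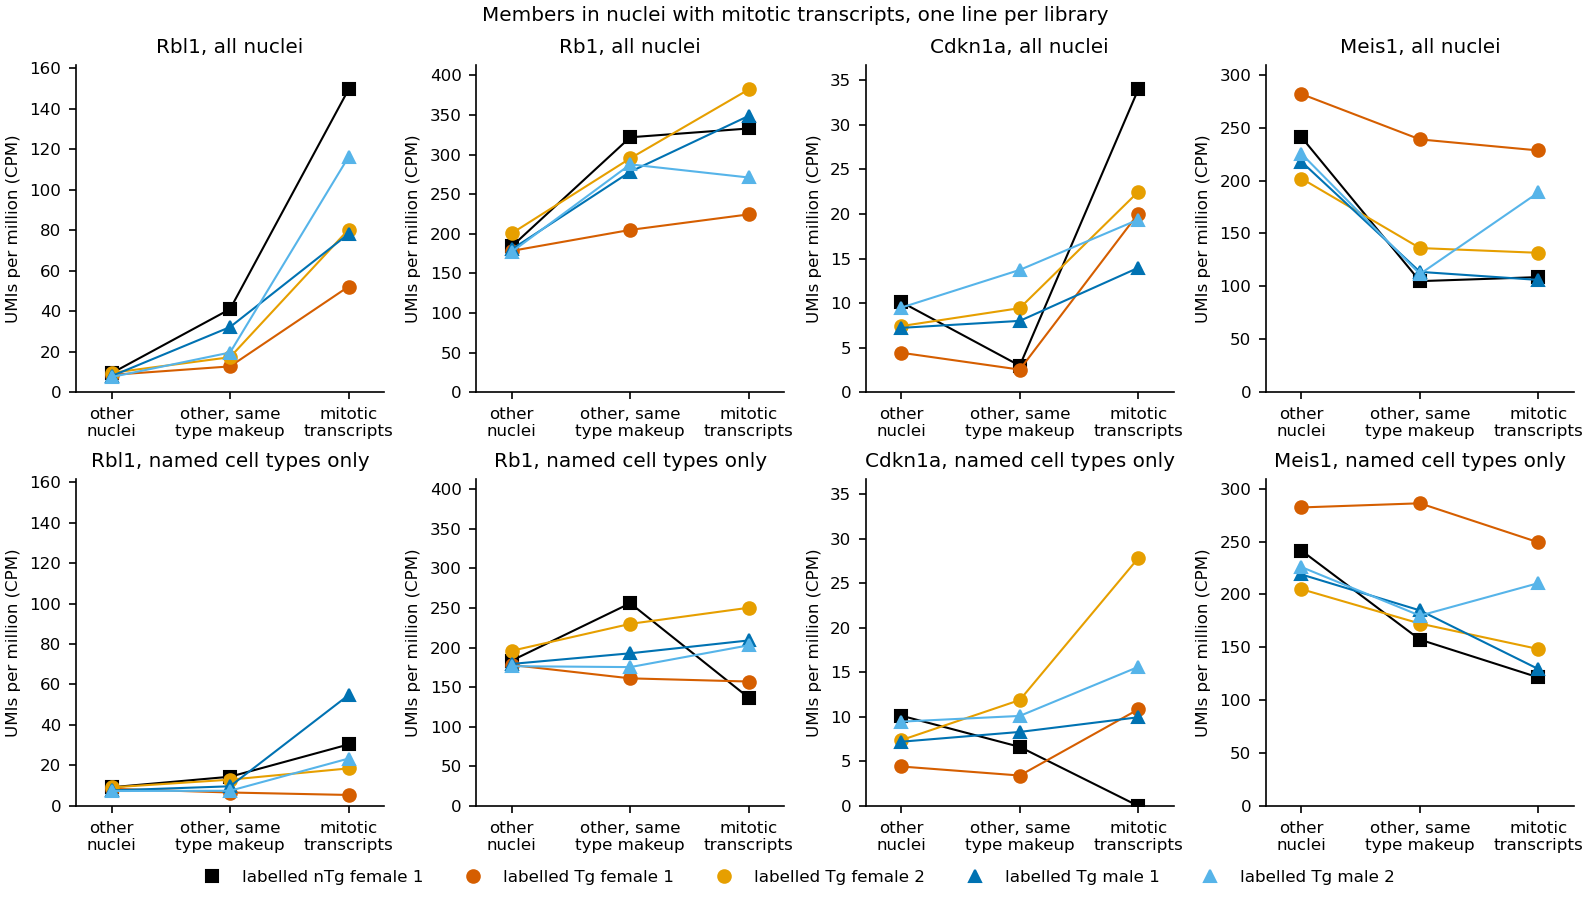
Levels of Rbl1, Rb1, Cdkn1a and Meis1 (CPM), 1 line per library, in other nuclei, in other nuclei weighted to the same mix of cell types and in nuclei with mitotic transcripts, for all nuclei (top) and named cell types only (bottom). In all nuclei Rbl1 in mitotic nuclei (52.1 to 150) lies above both. Meis1 averages 153 in mitotic nuclei and 141 at the same mix, where the unnamed cluster counts as 1 type. In named cell types only, these means are 172 and 196.

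Of the pathway genes, 68 were tested in mitotic nuclei, 21 higher and 5 lower. They were not weighted to the same mix of cell types, so the part of that mix in these calls was not tested. Among the 35 with 50 or more UMIs in both sums 13 were higher and 4 lower, beside the 13.2% and 14.4% of all genes. Both INK4 inhibitors with that many, Cdkn2b and Cdkn2c, were higher, as were 3 of 4 E2F and DP factors (E2f3, E2f7 and Tfdp1), 2 of 4 MuvB genes (Lin9 and Lin54) and 1 of 8 p53 regulators (Chek2). Of 3 G1 cyclins and kinases Ccne2, a cyclin E gene, was higher, and neither of 2 p53 targets was called. E2f2 stood at 30.3 against 0.248 CPM, on 35 and 29 UMIs, and the repressor E2f8 at 31.6 against 0.868 CPM. Of 7 genes of Cip/Kip turnover 2 were higher (Dtl and Skp2) and 1 lower (Foxo3). Dtl, which directs the ubiquitin ligase that degrades p21, held 69.5 against 0.923 CPM (5.93 ± 0.51). Among MEIS and PBX partners, Pknox2, a homeobox gene related to Meis1, held 70.8 against 102 CPM (-0.75 ± 0.20).

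Finally, the genes whose mean log2(CPM + 1) followed each member most closely over the 8 cell types were found among 13850 genes with at least 10 CPM in some type; with 8 points that share libraries these are descriptions. Meis1 was nearest to Tbx20 (Pearson r = 0.989), a cardiac T-box factor that also peaked in fibroblasts, and to the antisense gene Gm16141 (0.975). Rbl2 was nearest to Aktip, its opposite-strand neighbour (0.979), Rb1 to Rab31 (0.980) and Rbl1 to Rps29 (0.995), with the endothelial and haematopoietic factor Fli1 close behind (0.993). Cdkn1a was nearest to Mtmr10 (0.978), Cdkn1b to Hnrnpul2 (0.993), Cdkn1c to Herc2 (0.960), Trp53 to Cog2 (0.987) and Mdm2 to Mob3c (0.977). Rb1 and Rbl1 followed each other at r = 0.896, and Rb1 and Meis1 stood at -0.61.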

How the data were processed

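The deposited matrices hold UMI counts per gene and nucleus, made by the authors with Cell Ranger 7.0.0, per the file headers, on mm10, per the submitters' processing notes; whether introns were counted is not given in the sources used here. The 9 genes, the pathway lists and the tests were chosen with earlier results of these data known. In 3 of 8 libraries the matrix equalled that of another library and did not match its own barcodes, and they were not analysed here. Nuclei with at least 200 genes and at most 5% mitochondrial UMIs were kept; Scrublet doublets (7.78% to 10.2%) were removed, and in the library labelled Tg female 2, where only 4 nuclei were marked, the 642 with the highest scores. Clustering used scanpy 1.11.5 (2000 variable genes, 30 components, 15 neighbours, Leiden resolution 1). Counts summed per library and type or class were tested with edgeR 4.0.16 (TMM, filterByExpr, quasi-likelihood, Benjamini-Hochberg over all genes, threshold 0.05). DESeq2 1.42.0 was the alternative. The edgeR fit was checked on simulated counts only for sex in cardiomyocytes and for macrophages against cardiomyocytes. Of the pathway lists, up to 3 genes with the highest and 3 with the lowest difference were named per comparison, among those called with at least 10 CPM in the higher arm; Sesn1, Ccng1 and Perp levels beyond that rule were added after their values were seen. A gene that this rule would name is not reported here. Intervals cover counting error only where so stated.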

Additional observations from a re-analysis of the deposited data

Results flagged for a closer look

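In 2 of 64 groups of 4 Tg-labelled libraries, 1 library stood apart from the other 3 by more than Dixon's 95% limit for the gap over the range; chance alone gives about 1 in 20. Cdkn1b in pericytes was 55.4 CPM in the library labelled Tg male 1, against 40.1, 38.7 and 38.99 CPM in the others. Rb1 in pericytes was 238 CPM in the library labelled Tg female 2, against 190, 196 and 192 CPM.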

How the results depend on the processing

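Calls of the 9 genes against cardiomyocytes numbered 45, and 38 to 52 under the alternatives (42 to 46 with 1 library left out). Among pairs with 50 or more UMIs in both sums, a limit also set after the data were seen, 44 of the 63 pairs were left and the count was 29. Among the differences from cardiomyocytes, a value called under either setting changed sign only with the scaling, an alternative added after the data were seen. Values called under neither changed sign under other settings too, such as Mdm2 in endothelial nuclei (-0.015, and 0.0087 with no library block) and Trp53 in smooth muscle (-0.058, and 0.11). Per nucleus, values became negative in fibroblasts for Rbl2 (-0.68), Meis1 (-0.81), Trp53 (-0.41) and Rb1 (-0.47); in endothelial nuclei for Cdkn1b (-0.46), Trp53 (-1.01) and Rb1 (-0.16); in endocardial nuclei for Cdkn1b (-0.22), Trp53 (-0.57) and Rb1 (-0.44); in lymphatic endothelial nuclei for Cdkn1b (-0.076), Trp53 (-0.77) and Rb1 (-0.39); in pericytes for Cdkn1b (-0.48) and Rb1 (-0.65); in smooth muscle for Cdkn1b (-0.082), Rbl2 (-0.80) and Rb1 (-0.32); and in macrophages for Rbl2 (-0.9994), Mdm2 (-0.53) and Trp53 (-0.43). With library totals alone, values became positive in fibroblasts for Mdm2 (0.41), in endothelial nuclei for Rbl2 (0.11) and Mdm2 (0.53), in endocardial nuclei for Rbl2 (0.26), Mdm2 (0.53) and Meis1 (0.0085), in lymphatic endothelial nuclei for Mdm2 (0.029), and in pericytes for Rbl2 (0.28) and Mdm2 (0.49). Counting per nucleus keeps the difference in depth by construction; the cause of the gap between TMM and library totals was not tested. The 0 sex calls became 1 under DESeq2, 1 with no filter on low counts and 0 to 4 with 1 library left out; the cause was not tested. With the replicate block the count was 1 (Cdkn1a in endothelial nuclei, -2.06). Same-numbered libraries did not deviate together over genes (r from -0.015 to 0.078 over 8 types). The labels do not say what the numbers mean, and 2 libraries per sex cannot show whether they mark pairs. The 4 calls in mitotic nuclei became 2 at a limit of 2 UMIs, 3 with 50 or more UMIs in both sums, 0 without the unnamed cluster and small types, where Rb1 stood at -0.094, and 3 or 4 with 1 library left out. The 0 calls by Ccna2 class held under every alternative run. The mitotic comparison within macrophages was not run, with under 10 such nuclei per library. Cdkn1a, Cdkn1c and Rbl1 had 143, 21 and 16 UMIs in cardiomyocytes, the deepest sums, and depth limits the smallest, as in smooth muscle, with 6 Cdkn1a and 5 Rbl1 UMIs.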

Other observations

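The types below 50 nuclei in some library were described only. In the unnamed cluster of 278 nuclei, led by cell-cycle and immunoglobulin genes, Rb1 stood at 412 ± 45.6 CPM (SD, n = 5) and Rbl1, the pocket protein of cycling cells, at 178, 106, 42.7, 86.5 and 178 CPM. Its Meis1 level was 97.0 ± 32.5 CPM and its Cdkn1b level 73.3 ± 13.3. T or NK-like nuclei (123 in all) held 373 ± 73.4 CPM of Rb1, 50.6 ± 18.5 of Rbl1 and 84.1 ± 26.3 of Cdkn1b, on 107, 15 and 23 UMIs. Mesothelial-like nuclei (109, with 2 in the library with the fewest) held 642 ± 344 CPM of Meis1 and 57.8 ± 47.0 of the inhibitor Cdkn1c, but 1 UMI of Rbl1 in all. Schwann-like nuclei (183) held 198 ± 31.2 CPM of Rb1 and 121 ± 79.4 of Meis1.

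Within fibroblasts, Cdkn1a was 12.3 ± 5.99 CPM in the cluster led by Cilp and Ltbp2 and 3.04 to 5.58 on average in the other 3 clusters. Meis1 was 283 ± 40.0 CPM in that cluster and 449 ± 81.3 in the cluster led by Cyp2e1. These are levels of clusters formed from the same nuclei, given without a test.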
